A study of Mus musculus with 8 samples.

Results

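The comparison described here set freshly sorted skeletal myogenic progenitors from mouse teratomas (TF) against freshly isolated muscle stem cells, called satellite cells, from adult mouse muscle (SF). It rested on 4 of the 8 RNA-seq libraries of the series, 2 biological replicates of each group, chosen by their labels, and asked how a progenitor population grown in a teratoma differed from the resident stem cells of adult muscle across all genes. TF cells descended from a single EGFP-labelled mouse embryonic stem cell line (E14-EGFP) that was injected into tibialis anterior muscle of NSG-mdx4Cv mice, in which that muscle had first been irradiated and damaged by cardiotoxin. These hosts are immunodeficient and lack dystrophin. From the teratomas, EGFP+ cells that lacked the endothelial marker CD31 and the blood cell marker CD45 and that carried α7-integrin and VCAM-1 were taken by flow cytometry. SF cells were the endogenous satellite cells of adult muscle. The strain, age and sex of the mice behind SF, how SF cells were sorted and how many animals or teratomas were pooled in a library are not given in the sources used here, so that cell origin, genetic background, age and host injury cannot be told apart. The other 4 libraries held each population after long-term expansion in culture (TE and SE) and were used for the shared spread and for the comparison of fresh with expanded cells.

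Satellite cells lie between the muscle fibre and its basement membrane and carry the transcription factor Pax7. In uninjured adult muscle they rest outside the cell cycle, a state held by Notch signalling, the calcitonin receptor and inhibitors of growth factor signalling. On injury they switch on Myod1, divide, and then either switch on Myog and fuse or return to rest. Fetal muscle progenitors also carry Pax7 but divide, make much extracellular matrix, and express imprinted growth genes and RNA-binding proteins of the Lin28 and Igf2bp families. The gene lists below follow these programs.

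Library totals ran from 11930961 to 12178480 estimated counts in TF and from 13973405 to 16872802 in SF. The ribosomal precursor Rn45s took 7.99% to 12.1% of the counts in TF and 19.9% to 21.3% in SF. SF1 stood apart in its number of genes above 3 counts, which was 20595 against 16300 to 16799 in the other 3 fresh libraries. TF1 stood apart in blood cell and epithelial genes, whose values are given with the markers below. All values per library are normalized counts, that is counts divided by a size factor, and each fold change is a log2 difference of TF over SF with its standard error (SE). The counts were scaled by median-ratio factors and the fold changes by edgeR's TMM factors. A ratio of printed counts can therefore differ from the fold change. Fitted with median-ratio factors, log2 differences were lower by a median of 0.16. Adjusted p values come from edgeR's quasi-likelihood test with Benjamini-Hochberg adjustment over all genes tested, and a gene was called at an adjusted p under 0.05 with the higher group over 25% above the lower. Because these were bulk libraries, fewer cells of a type and less RNA per cell cannot be told apart.

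Of 17582 genes tested, 2655 were higher in TF (15.1%) and 1606 were lower (9.13%), so that 4261 (24.2%) were called. These shares over all genes are the background against which each list count below is to be read. The median log2 difference of all genes tested was 0.08. Among the calls, 2112 of the higher and 1302 of the lower genes differed by more than 2-fold, and 386 and 350 by more than 8-fold. The libraries of TF and SF did not overlap for 64.5% of all genes tested, so that lack of overlap in a single gene carries little weight here. The excess of higher over lower calls depended on the scaling. Higher genes made up 62.3% of the calls as fitted, 52.1% with median-ratio size factors (2110 higher and 1943 lower), 48.8% with upper-quartile factors (1978 and 2079), 48.3% in DESeq2 (2475 and 2646), 53.3% with Rn45s left out (2142 and 1875) and 51.0% when only the 4 fresh libraries were fitted (1781 and 1708). These scalings moved the median of all genes down by 0.16 (median-ratio and DESeq2), 0.21 (upper-quartile) and 0.14 (Rn45s left out). No called gene named by the rule given in the methods changed sign with them, and the uncalled differences of Pax7 and Sox10, small and positive as fitted, turned negative. The medians of the specification, Notch and FGF lists below lie above 0 by less than these shifts, so that their direction is not fixed. Without TF1 the calls were 1693 higher and 946 lower, without TF2 1739 and 932, without SF1 1858 and 1023, and without SF2 2347 and 1218.

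**Figure D1:**
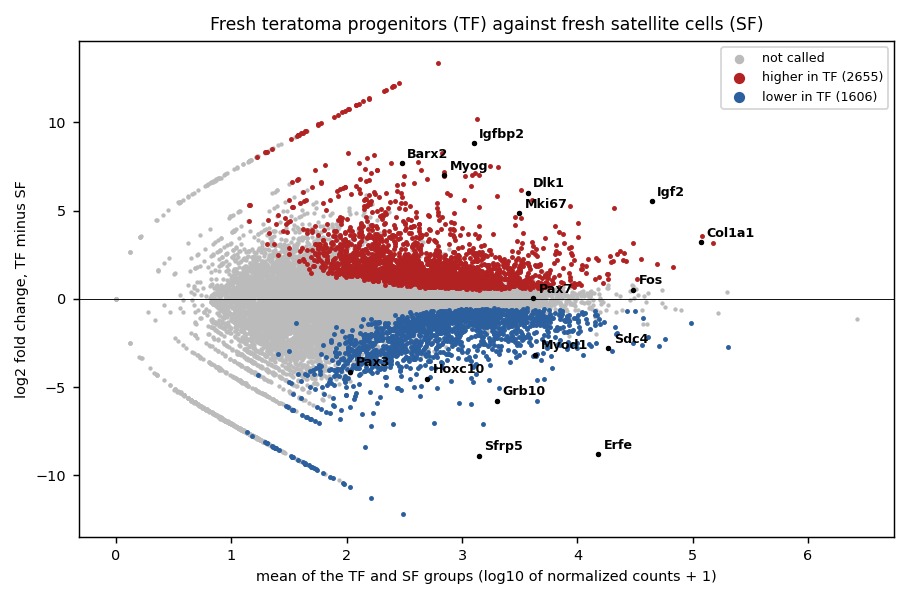
Each point is one of the 17582 genes tested, with the mean of the 2 group means as log10 of normalized counts plus 1 (horizontal) and the log2 fold change of TF over SF (vertical). Called genes are coloured by direction, 2655 higher and 1606 lower, and the diagonal streaks are genes with one group near 0 counts.

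The α7-integrin and VCAM-1 genes, Itga7 and Vcam1, were used to sort TF and are no finding. Itga7 had 2354 and 3118 normalized counts in TF and 2810.2 and 3865 in SF, and Vcam1 had 3856 and 5197 in TF and 5378 and 6579 in SF. Both were well detected in all 4 libraries.

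**Figure D2:**
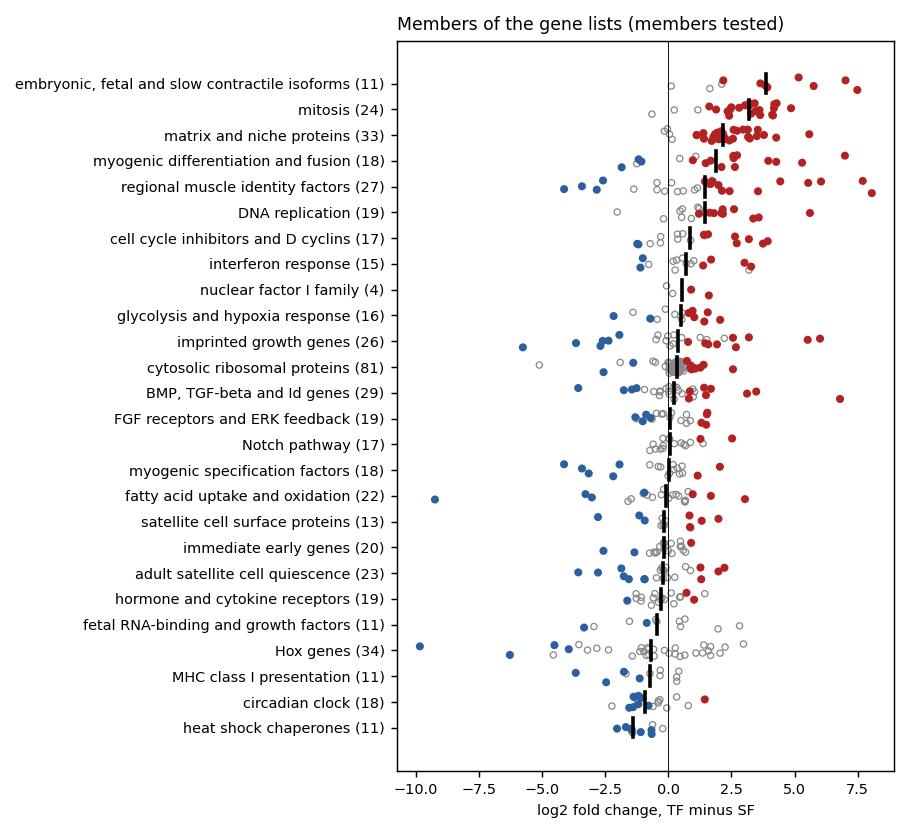
For each gene list (rows), points are the log2 fold changes of TF over SF of its tested members (horizontal axis), called members are filled (red higher, blue lower), the number of tested members follows each name, and the vertical bar is the list's median. The matrix list had 29 of 33 members called higher and none lower, the mitosis list 21 of 24 and none lower, and the heat shock list none higher and 7 of 11 lower.

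The myogenic regulators split. Pax7 was not called, Myog was far higher in TF, and Myod1, Pax3, Lbx1 and Msc were lower in TF. In the list of myogenic specification factors, 2 of 18 tested members were higher and 5 lower in TF, with a median log2 difference of 0.02. These 38.9% called stood beside 24.2% of all genes, of which 15.1% were higher and 9.13% lower. Pax7 (chr4:139737062-139833528, GRCm38) had 3067 and 4914 normalized counts in TF and 4046 and 4581 in SF. The TF values spanned both SF values, and the log2 difference of 0.05 ± 0.27 had a 95% interval of -0.56 to 0.65 (edgeR adjusted p = 0.926). Myf5, which with Myod1 commits cells to muscle, had 802 and 1366 in TF and 1482 and 1723 in SF and did not pass the test (adjusted p = 0.492).

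Myod1 (chr7:46376474-46379099), the regulator of activated satellite cells, had 637 and 930.2 normalized counts in TF and 6767 and 8837 in SF. Both SF libraries lay far above both TF libraries (log2 fold change -3.16 ± 0.25, adjusted p = 0.000111). Pax3 (chr1:78101267-78197134), the Pax7 relative of embryonic and limb muscle precursors, had 11.8 and 8.74 in TF and 218 and 185 in SF, low in the first group and readily counted in the second (log2 fold change -4.13 ± 0.95, adjusted p = 0.0124). Lbx1, a homeobox gene of migrating limb precursors, had 35.1 and 61.5 in TF and 517 and 645 in SF and moved the same way (log2 fold change -3.43 ± 0.38, adjusted p = 0.000395). Msc, a repressor of myogenic bHLH factors, fell by 2.19 ± 0.26 on the log2 scale, from 2115 and 2820.0 in SF to 501 and 471 in TF. The fifth lower member was Six2 (38.3 and 59.2 in TF, 238 and 178 in SF, log2 fold change -1.94), not called without TF1 at adjusted p = 0.14, TF2 at 0.0581 or SF1 at 0.107. The 2 higher members were Meox1, a somite homeobox gene (426 and 564 against 168 and 101, log2 fold change 2.04), and Eya2, a cofactor of Six2 and its relatives (393 and 271 against 199 and 135, log2 fold change 1.16). Meox1 was not called without TF2 at adjusted p = 0.0759 or SF2 at 0.0725, and the Eya2 call was lost on leaving out any of the 4 libraries, with median-ratio or upper-quartile factors, with Rn45s left out and in DESeq2.

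Myog (chr1:134289989-134292548), which starts terminal differentiation, had 1328 and 1449 normalized counts in TF and 8.92 and 14.8 in SF. It was high in both TF libraries and near the limit of counting in both SF libraries, a difference of 128-fold (log2 fold change 7.0 ± 0.64, adjusted p = 0.000179). Differentiation genes rose with it, and 12 of 18 tested members of the differentiation and fusion list were higher in TF and 3 lower, with a median of 1.89. Mymk, the membrane activator of myoblast fusion, had 288 and 283 in TF and 15.3 and 25.1 in SF (log2 fold change 3.96 ± 0.49, adjusted p = 0.000648). Its partner Mymx had 22.1 and 29.5 in TF and 1.27 and 0 in SF, low everywhere but higher in TF (log2 fold change 5.30; 7.80 without SF1 and 4.40 without SF2). Smyd1, a methyltransferase needed for sarcomere assembly, had 180.5 and 156 in TF and 6.37 and 12.5 in SF (log2 fold change 4.27 ± 0.39, adjusted p = 0.000171; 4.89 without SF2). The giant sarcomere proteins Ttn and Neb rose by 2.59 ± 0.40 and 2.72 ± 0.36 on the log2 scale (3.18 without SF1 for Ttn and 3.32 without SF1 for Neb). The 3 lower members were of another kind. Musk, the kinase that organizes the neuromuscular junction, had 621 and 545 in TF and 2139.8 and 2556 in SF (log2 fold change -1.85 ± 0.24, adjusted p = 0.000786), the acetylcholine receptor subunit gene Chrnb1 had 680.3 and 910.5 in TF and 1703 and 2313 in SF (log2 fold change -1.18 ± 0.22, adjusted p = 0.00528; not called without TF1 at adjusted p = 0.0557), and desmin (Des), the muscle intermediate filament already present in satellite cells, had 6244 and 5494 in TF and 12218 and 15251 in SF (log2 fold change -1.07 ± 0.23, adjusted p = 0.00891; not called without TF2 at adjusted p = 0.0818).

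**Figure D3:**
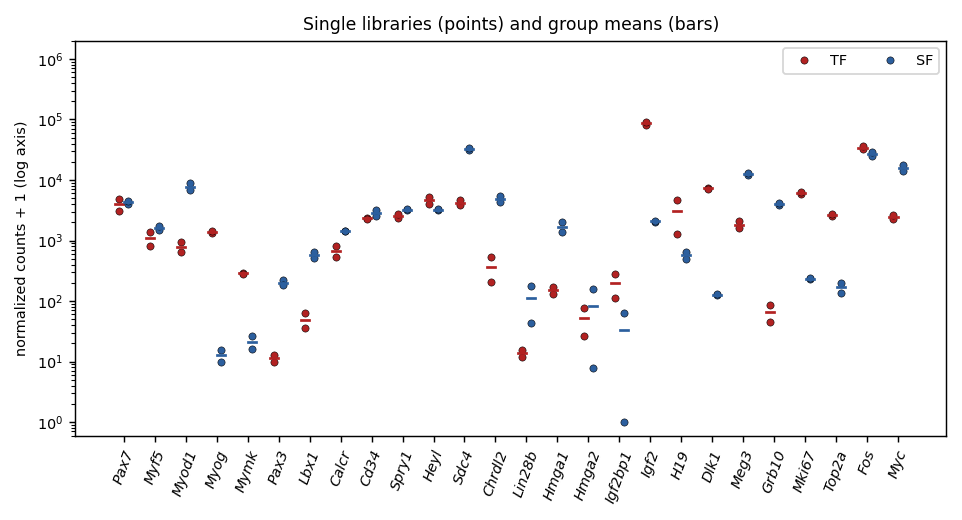
Normalized counts (log axis) of the key genes in each of the 4 fresh libraries, TF and SF in 2 colours, 1 point per library. Pax7, Cd34 and Spry1 points lie together, Myog, Mki67, Igf2 and Dlk1 are higher in both TF libraries, and Myod1, Pax3 and Meg3 are higher in both SF libraries.

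Quiescence genes changed in both directions. Of 23 tested members of the adult satellite cell quiescence list, 4 were higher in TF, 7 lower and 12 were not called, with a median of -0.21. Several of its best known members were not called. Cd34, a surface sialomucin of quiescent satellite cells, had 2377 and 2250.4 normalized counts in TF and 2547 and 3242 in SF, and its log2 difference was -0.17 with a 95% interval of -0.85 to 0.51. Spry1, an inhibitor of receptor tyrosine kinase signalling that keeps satellite cells at rest, had 2347 and 2693 in TF and 3141 and 3343 in SF, and Heyl, a Notch target, had 4014 and 5282 in TF and 3181 and 3284 in SF. Their intervals were -1.03 to 0.62 for Spry1 and -0.16 to 1.52 for Heyl, so that differences of up to 2.04-fold in Spry1 and 2.87-fold in Heyl lie within them. Calcr, the calcitonin receptor that holds satellite cells at rest, had 534 and 801 in TF and 1431 and 1428 in SF. Both SF libraries were higher, and the log2 difference of -0.94 ± 0.29 lay just inside the threshold (adjusted p = 0.0496). The Calcr call was lost without any of the 4 libraries (adjusted p 0.0583 to 0.279), and also when tested against the fold threshold or with an offset for GC content.

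The quiescence genes that fell most were Chrdl2, Sdc4 and Klf9. Chrdl2, a BMP antagonist, had 203 and 533 normalized counts in TF and 4334 and 5435 in SF (log2 fold change -3.57 ± 0.63, adjusted p = 0.00471), with -4.44 without TF2, and DESeq2 did not call it. Sdc4, a heparan sulfate proteoglycan on the satellite cell surface, had 3896 and 4590.1 in TF and 31358 and 34201 in SF (log2 fold change -2.79 ± 0.27, adjusted p = 0.000215). Klf9, a glucocorticoid-responsive zinc finger gene, had 1246 and 1309 in TF and 4950.4 and 5451 in SF (log2 fold change -1.87 ± 0.27, adjusted p = 0.00144). Tgfbr3, a TGF-beta coreceptor, had 2624 and 2971 in TF and 9854 and 11391 in SF (log2 fold change -1.77 ± 0.50, adjusted p = 0.0292), a call lost without any 1 of the 4 libraries and in DESeq2. The 4 higher members were Col5a1 (log2 fold change 2.22), a collagen chain, Sdc3 (1.98), another syndecan, the forkhead gene Foxo4 (1.30) and the Notch target Hes1 (1.27). Sdc3 and Sdc4 thus moved in opposite directions, Sdc3 with 3289 and 2921 in TF and 880.3 and 875 in SF. Hes1 had 904 and 1115 in TF and 400.0 and 531 in SF and was not called without TF2 at adjusted p = 0.0556 or SF1 at 0.0523. Leaving out any 1 library left 4 lower members in place of 7, and 3 or 4 higher ones.

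Surface proteins of satellite cells gave 4 higher and 3 lower members of 13 tested, among them the syndecans and Calcr above. Met, the receptor of hepatocyte growth factor, had 2504 and 3213 normalized counts in TF and 1275 and 1283 in SF (log2 fold change 1.32 ± 0.26, adjusted p = 0.00672). Integrin beta 1 (Itgb1) and M-cadherin (Cdh15) rose by 0.85 ± 0.19 and 0.84 ± 0.22 on the log2 scale, and the tetraspanin gene Cd82 fell by 1.16 ± 0.29. All 3 calls were small. Itgb1 was not called without TF1 at adjusted p = 0.0542 or TF2 at 0.0937, Cdh15 was not called without TF2 at adjusted p = 0.187 or SF1 at 0.107, and Cd82 was not called without TF1 at adjusted p = 0.117 or SF2 at 0.0563. Without TF1 or without SF2 1 surface gene was lower in place of 3, and without TF2 2 were higher in place of 4.

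Genes of the dividing cell were higher in TF. Of 24 tested mitosis genes 21 were higher and none lower, with a median of 3.21, against 15.1% higher among all genes. With 1 library left out the count was 18 to 21, and without SF2 1 member was lower. Mki67 (chr7:135689784-135716361), a marker of cycling cells, had 5788 and 6327 normalized counts in TF and 229 and 236 in SF, far apart, with the libraries of each group close together (log2 fold change 4.86 ± 0.41, adjusted p = 0.000143). Top2a, the topoisomerase that untangles chromosomes, had 2534 and 2727 in TF and 200 and 133 in SF (log2 fold change 4.14 ± 0.39, adjusted p = 0.000193). Some fitted differences rested on low and uneven SF values, with SF2 below SF1. Among them were the mitotic kinase gene Aurkb (219 and 282 in TF, 29.3 and 0 in SF, log2 fold change 4.29, and 11.07 without SF1 or 3.29 without SF2), Kif20a (4.20, and 5.25 or 3.59), a kinesin gene, and the spindle gene Nusap1 (4.18, and 6.57 or 3.32). A fitted value against a library at 0 depends on the prior count and is no bound. The 3 members not called were Aurka, Birc5 and Hmmr. Birc5 had 259 and 641 in TF and 635 and 228 in SF, and Hmmr had 507 and 412 in TF and 1194 and 434 in SF, with SF1 the higher SF library in both.

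DNA replication genes gave 10 higher and none lower of 19 tested, with a median of 1.44. Without TF2 or SF2, Tyms was called lower (log2 fold change -2.56 and -2.78, adjusted p = 0.0497 and 0.00119). The MCM helicase subunits Mcm2, Mcm3, Mcm5, Mcm6 and Mcm7 were among the higher genes, with Mcm2 at 988 and 1085 normalized counts in TF and 169 and 58.2 in SF (log2 fold change 3.36 ± 0.43, adjusted p = 0.000768; 4.27 without SF1). Mcm4, a subunit of the same helicase, differed less, with log2 differences of 0.27 (without SF1) to 0.67 (without SF2) when 1 library was left out. Ccne1, the cyclin of S phase entry, had 486 and 476 in TF and 6.37 and 81 in SF (log2 fold change 3.58 ± 0.72, adjusted p = 0.00694), and its SF libraries differed so much that it was 2.69 without SF1 and 6.41 without SF2. Gins2, a subunit of the replicative helicase, had 129.8 and 149 in TF and 6.37 and 0 in SF (log2 fold change 5.61 ± 0.95, adjusted p = 0.003; 10.22 without SF1 and 4.62 without SF2). Pcna, which is also used in DNA repair, was not called at 1274 and 1166 in TF and 1395 and 1716 in SF. SF1 again stood apart in Tyms, a nucleotide synthesis gene, which had 4079 and 695 in SF and 355 and 678 in TF.

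Inhibitors of the cell cycle did not follow a single direction, and 7 of 17 tested cell cycle inhibitors and D cyclins were higher in TF and 2 lower, with a median of 0.87. The D cyclin Ccnd2 had 5065 and 5239 normalized counts in TF and 743 and 1096 in SF (log2 fold change 2.64 ± 0.26, adjusted p = 0.00025). Cdkn1c, the imprinted inhibitor p57, was also higher in TF, at 5753 and 5966 against 575 and 854 (log2 fold change 3.19 ± 0.60, adjusted p = 0.00524). The Ink4 inhibitors Cdkn2a and Cdkn2b were low in SF. Cdkn2a had 106 and 46.8 in TF and 10.2 and 1.14 in SF, and Cdkn2b had 203 and 153 in TF and 24.2 and 5.7 in SF. Their log2 fold changes were 3.94 (3.24 without TF1, 6.03 without SF1 and 3.09 without SF2) and 3.75 (5.05 without SF1 and 3.07 without SF2). Fitted on the 4 fresh libraries alone, neither Cdkn2a nor Aurkb was called. The 2 lower members were antiproliferative genes, Btg1 (5146 and 4241 against 11813 and 12864, log2 fold change -1.24 ± 0.19, adjusted p = 0.0019) and the stress gene Gadd45a (1595 and 1902 against 4014 and 4877, log2 fold change -1.19 ± 0.23, adjusted p = 0.00576; not called without TF1 at adjusted p = 0.0509).

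Promoters of some called mitosis and replication genes that held a motif of their list are shown, not of all such genes. These lists were chosen because every called member rose with all libraries fitted. Sequences are RefSeq's for GRCm38.p6, 5′ to 3′ on the gene's strand, from the 250 bases before the start, and capitals mark every match to the motifs of the gene's own list on either strand. For mitosis genes the motifs were the CCAAT box (CCAAT, also read as ATTGG) and the cell cycle homology region (TTTGAA, also read as TTCAAA, or TTCGAA, which reads the same on both strands). For replication genes the motif was the E2F site (TTCCCGC or TTGGCGC, also read as GCGGGAA or GCGCCAA). No motif overlapped another in these windows.
Mki67 (chr7:135716380-135716579, - strand): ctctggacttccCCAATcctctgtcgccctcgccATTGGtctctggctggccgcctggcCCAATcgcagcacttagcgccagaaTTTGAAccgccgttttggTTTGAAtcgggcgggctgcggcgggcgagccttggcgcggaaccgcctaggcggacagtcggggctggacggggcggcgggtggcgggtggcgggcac
Top2a (chr11:99024190-99024429, - strand): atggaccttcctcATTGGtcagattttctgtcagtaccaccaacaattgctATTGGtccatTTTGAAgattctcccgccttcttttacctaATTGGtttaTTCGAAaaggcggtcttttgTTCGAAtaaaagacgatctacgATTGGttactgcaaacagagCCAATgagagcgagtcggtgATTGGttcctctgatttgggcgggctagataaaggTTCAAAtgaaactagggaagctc
Cenpf (chr1:189688087-189688236, - strand): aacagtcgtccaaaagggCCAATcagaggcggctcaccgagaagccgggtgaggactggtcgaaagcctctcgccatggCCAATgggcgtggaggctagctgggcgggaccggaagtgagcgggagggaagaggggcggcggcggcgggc
Mcm5 (chr8:75109329-75109508, + strand): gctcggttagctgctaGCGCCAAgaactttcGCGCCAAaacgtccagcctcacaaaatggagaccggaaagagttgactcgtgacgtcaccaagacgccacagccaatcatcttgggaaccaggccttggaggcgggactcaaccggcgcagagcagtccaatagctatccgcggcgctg
Mcm6 (chr1:128359706-128359825, - strand): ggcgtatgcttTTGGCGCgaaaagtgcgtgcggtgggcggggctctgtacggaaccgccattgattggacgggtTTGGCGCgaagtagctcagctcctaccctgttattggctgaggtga
Mcm7 (chr5:138171884-138172063, - strand): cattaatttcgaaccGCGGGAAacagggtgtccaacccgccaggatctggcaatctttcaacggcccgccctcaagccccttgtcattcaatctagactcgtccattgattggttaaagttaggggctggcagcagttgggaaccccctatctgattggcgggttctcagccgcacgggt
Of 19 mitosis genes with a promoter in the table, 16 (84.2%) held a CCAAT box and 8 (42.1%) a cell cycle homology region in at least 1 promoter, against 37.5% and 19.6% of 27025 genes. Of 15 replication genes, 7 (46.7%) held an E2F site against 6.45%. A match describes the letters only and was tested for no factor. In the order printed, the log2 fold changes were 4.86 (Mki67), 4.14 (Top2a), 3.61 (Cenpf), 2.16 (Mcm5), 2.15 (Mcm6) and 1.21 (Mcm7). The Mcm5 call was lost without SF2 (adjusted p = 0.0835).

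Markers of fetal growth did not move as a block. In the list of fetal RNA-binding and growth factors none of 11 tested members was higher in TF and 2 were lower, with a median of -0.46. The 18.2% called lay below the 24.2% of all genes. With TF2, SF1 or SF2 left out 1 member was higher. Lin28b, a fetal RNA-binding protein that blocks let-7 maturation, had 10.7 and 14.8 normalized counts in TF and 179 and 42 in SF, low in both TF libraries and scattered in SF (log2 fold change -2.95 ± 1.39, adjusted p = 0.155). Its relative Lin28a had 37.7 and 11.1 in TF and 14 and 0 in SF. Igf2bp1, which stabilizes growth mRNAs, had 280.4 and 112 in TF and 63.7 and 0 in SF, a log2 difference of 2.82 ± 1.01 that did not pass the test (adjusted p = 0.0698). Igf2bp1 was called with no filter on low counts and with the replicate block. Hmga2, a chromatin protein of fetal stem cells, had 77.2 and 25.8 in TF and 159.6 and 6.96 in SF, with overlapping libraries (log2 fold change -0.51 ± 1.0, adjusted p = 0.761). The lower members were Hmga1, its close relative, with 131 and 170.1 in TF and 1381 and 2022 in SF (log2 fold change -3.34 ± 0.42, adjusted p = 0.000723), and Igf2bp2 with 424 and 431 in TF and 787 and 942 in SF (log2 fold change -0.86 ± 0.19, adjusted p = 0.0114; not called without TF1 at adjusted p = 0.087, TF2 at 0.075 or SF2 at 0.0531).

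Imprinted growth genes moved strongly and both ways, with 9 of 26 tested members higher in TF and 6 lower (median 0.37). Igf2 (chr7:142650766-142666816), the paternally expressed fetal growth factor, had 80959 and 91151 normalized counts in TF and 2049 and 2136 in SF, 45.9-fold apart (log2 fold change 5.52 ± 0.49, adjusted p = 0.000164). H19 (chr7:142575529-142578143), the maternally expressed RNA of the same domain, had 4740.1 and 1299 in TF and 656 and 490.3 in SF. All TF values were above the SF values, but TF1 was far above TF2 (log2 fold change 2.56 ± 0.61, adjusted p = 0.0171), and it was not called without TF1 at adjusted p = 0.0724 or SF1 at 0.0635, with a log2 fold change of 1.35 without TF1 and 3.21 without TF2. Dlk1 (chr12:109452823-109463336), a Notch-related transmembrane protein of fetal muscle, had 7445 and 7088 in TF and 124 and 128 in SF, with little difference within either group (log2 fold change 6.01 ± 0.38, adjusted p = 5.99e-05). Other RNAs of the Dlk1 domain went the other way. Meg3 (chr12:109541001-109571726) had 1589 and 2071 in TF and 11880.3 and 12986 in SF (log2 fold change -2.61 ± 0.34, adjusted p = 0.000808), and Mirg, like Meg3 a maternally expressed noncoding RNA, fell by 1.94 ± 0.34 on the log2 scale. The paternally expressed Rtl1, which overlaps an antisense RNA, fell by 2.37 ± 0.43, while the noncoding Rian was not called (3257 and 3172 in TF and 4414 and 5162 in SF).

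Other imprinted domains showed members on both sides. Grb10, an adaptor that restrains insulin and growth factor signalling, had 44.1 and 86.1 normalized counts in TF and 3800.1 and 4163 in SF (log2 fold change -5.77 ± 0.69, adjusted p = 0.000546). Airn, the noncoding RNA that silences Igf2r on the paternal allele, had 88.3 and 87.1 in TF and 1171 and 1313 in SF (log2 fold change -3.66 ± 0.41, adjusted p = 0.000399), and Igf2r itself had 12322 and 13514 in TF and 7488 and 9282 in SF (log2 fold change 0.78 ± 0.20, adjusted p = 0.0186; not called without TF1 at adjusted p = 0.0726, TF2 at 0.14 or SF1 at 0.0705). Cdkn1c was higher in TF, as given above, and Kcnq1ot1, the noncoding RNA of its domain, had 9505 and 15193 in TF and 154523 and 26249.7 in SF. The SF libraries differed several-fold, and the Kcnq1ot1 difference (log2 fold change -2.69 ± 0.65, adjusted p = 0.0151) was not called without TF1 at adjusted p = 0.0547 or SF1 at 0.064, with a log2 fold change of -0.97 without SF1 and -3.45 without SF2. Peg10, a retrotransposon-derived growth gene, had 7315 and 6413 in TF and 1109.6 and 1287 in SF (log2 fold change 2.67 ± 0.19, adjusted p = 7.17e-05). Airn and Kcnq1ot1 run antisense to Igf2r and Kcnq1, and whether the counting used strand is not given in the sources used here. Peg3, Gnas and Zdbf2 were not called, with log2 differences of -0.09, 0.19 and 0.07.

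Embryonic, fetal and slow contractile isoforms were higher in TF in 8 of 11 tested members and lower in none, with a median of 3.85. Myh3, the embryonic myosin heavy chain, had 3809 and 1761 normalized counts in TF and 47.1 and 2.29 in SF, and Myh8, the perinatal one, had 6017 and 2102 in TF and 52.5 and 0 in SF. TF1 was the higher TF library in both and SF2 was at or near 0, with log2 fold changes of 7.02 ± 0.84 (6.37 without TF1, 10.29 without SF1 and 6.08 without SF2) and 7.49 ± 1.09 (6.55 without TF1, 15.08 without SF1 and 6.48 without SF2). Tnnt2, the cardiac troponin T made by immature muscle, had 669 and 511 in TF and 11.5 and 12.5 in SF (log2 fold change 5.76 ± 0.52, adjusted p = 0.000166), and cardiac actin Actc1 had 1526 and 829 in TF and 59.9 and 14.8 in SF (log2 fold change 5.16 ± 0.67, adjusted p = 0.000841; 6.41 without SF1 and 4.49 without SF2). Genes of the adult fast fibre gave 5 higher and 1 lower of 17 (3 higher without TF1 or without SF1). The fast light chain Mylpf had 887 and 540.1 in TF and 65 and 28.5 in SF (log2 fold change 4.11 ± 0.46, adjusted p = 0.000395; 4.75 without SF1), skeletal actin Acta1 rose by 2.38 ± 0.51 (1.73 without TF1) and the fast IIx myosin Myh1 by 1.81 ± 0.39 on the log2 scale. Tnnc2 and Tnnt3 were called too, with TF1 at the top of both (Tnnc2 was not called without TF1 at adjusted p = 0.0646 or SF1 at 0.0579, with a log2 fold change of 1.11 without TF1, and Tnnt3 was not called without TF1 at adjusted p = 0.222 or SF1 at 0.176, with a log2 fold change of 0.88 without TF1). Only Myh4, the fast IIb myosin of mature fibres, fell, with 339.8 and 208 in TF and 1782 and 1395 in SF (log2 fold change -2.37 ± 0.48, adjusted p = 0.00741). The summed level of the 17 fast fibre genes was 9431 to 16826 in TF and 7373 to 8607 in SF. With all libraries 35.3% of them were called, beside 24.2% of all genes.

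Extracellular matrix genes were higher in TF almost throughout. Of 33 tested matrix and niche proteins 29 were higher in TF and none lower, with a median of 2.17, and leaving out any 1 library left 27 to 29. Their summed level was 1394810 and 1476050 normalized counts in TF and 227844 and 342046 in SF. Col1a1, the main chain of type I collagen, had 209379 and 213163 in TF and 17607 and 32545 in SF (log2 fold change 3.23 ± 0.53, adjusted p = 0.00255), and Col3a1 had 267116 and 267864 in TF and 24038 and 42499 in SF (log2 fold change 3.16 ± 0.33, adjusted p = 0.000298). Fbn2, the fibrillin of developing microfibrils, had 7480.4 and 8189 in TF and 279 and 90.3 in SF (log2 fold change 5.58 ± 0.57, adjusted p = 0.000261; 6.56 without SF1), and Fbn1, the fibrillin of later life, rose by 2.72 ± 0.23. The proteoglycan gene Vcan had 17142 and 21173 in TF and 902 and 1302 in SF (log2 fold change 4.27 ± 0.37, adjusted p = 0.000143). Basement membrane genes rose as well, among them the laminin chain Lamb1 (12379 and 13324 in TF, 961 and 1115 in SF, log2 fold change 3.79 ± 0.30, adjusted p = 0.000111) and, less, Lama2 of adult muscle laminin (log2 fold change 1.13 ± 0.24, adjusted p = 0.0084; not called without TF2 at adjusted p = 0.0673). The 4 members not called were Dcn, Lama5, Col5a3 and Lamb2, with log2 differences of 0.15, 0.04, -0.04 and -0.16. Col5a1, another collagen V chain than Col5a3, had a log2 fold change of 2.22.

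Markers of fibro-adipogenic cells, the matrix-making mesenchymal cells of muscle, were higher in TF beside these genes, 4 of 7 and none lower, with summed levels of 30492 and 31026 in TF and 16142 and 26456 in SF. Pdgfra had 4158 and 4319.9 in TF and 1438 and 2115 in SF (log2 fold change 1.41 ± 0.31, adjusted p = 0.0107; not called without SF1 at adjusted p = 0.067), Pi16 had 2623 and 3331 in TF and 264 and 707 in SF (log2 fold change 2.76 ± 0.46, adjusted p = 0.00274; 3.70 without SF2), Cd248 rose by 2.16 ± 0.32 and Lum by 2.20 ± 0.49 (3.05 without SF2; not called in DESeq2). Dpt, Dcn and Ly6a were not called, with log2 differences of -0.08, 0.15 and 0.12. The part of these markers in the matrix result was not tested. The lowest of the 7 markers, Ly6a, had 245 and 124 in TF and 134 and 245 in SF.

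Of 34 tested Hox genes, which record the position of a cell along the body and limb, none was higher in TF and 4 were lower, all of the Hoxc cluster, with a median of -0.68. The 11.8% lower lay near the 9.13% of all genes. Hoxc10 had 19.5 and 55.4 normalized counts in TF and 837 and 1086 in SF (log2 fold change -4.52 ± 0.54, adjusted p = 0.000573; -5.47 without TF2). Hoxc6 had 11.7 and 6.15 in TF and 159 and 152 in SF (log2 fold change -3.95 ± 0.75, adjusted p = 0.00539), Hoxc9 had 0 and 3.69 in TF and 209 and 140.3 in SF (adjusted p = 0.00256), and Hoxc11 was at 0 in both TF libraries with 139 and 105 in SF. Against the limit of 3 counts per library, Hoxc9 and Hoxc11 were at least 46-fold and 32.1-fold lower in TF. No member of the Hoxa, Hoxb and Hoxd clusters was called. The summed level of the Hox genes was 1039 to 1210 in TF and 2599 to 3366 in SF.

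Regional muscle identity factors, which mark head, limb and trunk muscle, gave 13 higher and 4 lower of 27 tested (median 1.45). Barx2, a homeobox gene of craniofacial and other muscle, had 534 and 651 normalized counts in TF and 6.37 and 0 in SF (log2 fold change 7.70 ± 0.93, adjusted p = 0.000872; 12.31 without SF1 and 6.71 without SF2). Tcf21 and Hand2, factors of the pharyngeal and cardiac mesoderm, were low in SF, with 352 and 321 in TF and 11.5 and 0 in SF for Tcf21 and 391 and 239 in TF and 15.3 and 0 in SF for Hand2. Both were at 0 in SF2, with log2 fold changes of 6.05 (11.49 without SF1 and 5.06 without SF2) and 5.54 (not called without TF1 at adjusted p = 0.089; 11.40 without SF1 and 4.55 without SF2; not called in DESeq2). Pitx1, of the hindlimb and the mandible, had 308 and 258 in TF and 16.6 and 12.5 in SF (log2 fold change 4.43 ± 0.90, adjusted p = 0.0074), and Isl1, of pharyngeal muscle progenitors, had 295 and 416 in TF and 34.4 and 33.1 in SF (log2 fold change 3.55 ± 0.58, adjusted p = 0.00252). Tbx1, the upstream regulator of branchial arch muscle, rose by 1.62 ± 0.34. The cardiac factor Nkx2-5 had 23.4 and 39.4 in TF and 0 in both SF libraries, at least 8.66-fold higher. The 4 lower members were Pax3 and Lbx1, given above, En1 (81.8 and 75.1 in TF, 516 and 541 in SF, log2 fold change -2.59 ± 0.40, adjusted p = 0.00191), a homeobox gene of somite and limb, and the forelimb gene Tbx5 (46.5 and 12.3 in TF and 331 and 145 in SF, log2 fold change -2.84; not called without TF2 at adjusted p = 0.184, SF1 at 0.253 or SF2 at 0.053; -4.08 without TF1, -2.17 without TF2 and -2.18 without SF1). Tbx4, a hindlimb gene, was not called (193 and 151 in TF, 106 and 82.4 in SF).

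Signalling genes were called in part. Of the tested members of the Notch list 11.8% were called, below the 24.2% of all genes, and of the FGF list 42.1%. In the Notch pathway 2 of 17 tested members were higher and none lower (median 0.05), namely Hes6 and Hes1, the latter not called without TF2 at adjusted p = 0.0556 or SF1 at 0.0523. Hes6, which promotes myogenic differentiation rather than Notch output, had 318 and 287 normalized counts in TF and 67.5 and 50.2 in SF (log2 fold change 2.52 ± 0.22, adjusted p = 0.000147). The receptors Notch1, Notch2 and Notch3 were not called, with log2 differences of -0.21, 0.05 and -0.32. Among FGF receptors and feedback genes of the ERK pathway 4 were higher and 4 lower of 19 (median 0.06). Fgfr1, the main FGF receptor of satellite cells beside Fgfr4, had 7187 and 7995 in TF and 18618 and 23406 in SF (log2 fold change -1.31 ± 0.21, adjusted p = 0.00233), while Fgfr2 had 663 and 491 in TF and 176 and 270.3 in SF (log2 fold change 1.52; not called without TF1 at adjusted p = 0.186, TF2 at 0.0726 or SF1 at 0.18). The ERK phosphatase gene Dusp6 had 931 and 1016 in TF and 357 and 413 in SF (log2 fold change 1.5 ± 0.36, adjusted p = 0.0148; not called without SF1 at adjusted p = 0.0865). The other higher (Dusp7 and Etv1) and lower members (Spred1, Egfr and Spry2) were each lost on leaving out at least 2 of the 4 libraries in turn. Without TF1, TF2 or SF2 1 member was lower in place of 4, and without TF1, SF1 or SF2 1 or 2 were higher in place of 4.

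BMP, TGF-beta and Id genes gave 8 higher and 4 lower of 29 (median 0.22), with 5 higher without SF1 and 2 lower without TF1, TF2 or SF2. With all libraries 41.4% of the list was called, beside 24.2% of all genes. Nog, a BMP antagonist, had 267 and 271 normalized counts in TF and 15.3 and 37.6 in SF (log2 fold change 3.48 ± 0.47, adjusted p = 0.00103; 4.33 without SF2), and Grem1, another, had 64.9 and 82.4 in TF and 1.27 and 0 in SF (log2 fold change 6.80 ± 1.15, adjusted p = 0.003; 9.31 without SF1 and 5.91 without SF2). The antagonists Chrdl1 and Chrdl2 went the other way, Chrdl1 with 221 and 305 in TF and 603 and 993 in SF (log2 fold change -1.45; not called without TF1 at adjusted p = 0.157, TF2 at 0.0682 or SF2 at 0.241). The receptor genes Bmpr1b and Tgfbr2 rose by 3.12 ± 0.49 and 1.69 ± 0.26 on the log2 scale. Id3, an inhibitor of bHLH factors induced by BMP, fell by 1.26 ± 0.29 (not called without TF1 at adjusted p = 0.0706), and Id1 and Id2 were not called at 0.04 and 0.22. The nuclear factor I family gave 2 higher of 4. Nfix (chr8:84699876-84800344), which drives the switch from embryonic to fetal muscle genes, had 11975 and 14033 in TF and 6667 and 8851 in SF, with all TF values above SF (log2 fold change 0.90 ± 0.22, adjusted p = 0.016), and was not called without TF2 at adjusted p = 0.119 or SF1 at 0.0724. Its relative Nfic had 6312 and 7855 in TF and 2385 and 2813 in SF (log2 fold change 1.60 ± 0.20, adjusted p = 0.000748), while Nfia and Nfib were not called (-0.07 and 0.17).

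Genes that respond to tissue dissociation and stress were abundant in both groups. Fos, an immediate early gene, had 32693 and 35785 normalized counts in TF and 24695 and 28541 in SF, and its log2 difference of 0.52 ± 0.21 did not pass the test (adjusted p = 0.1, 95% interval 0.05 to 0.99). Of 20 tested immediate early genes 1 was higher and 2 lower (median -0.17), and these 15% called lay below the 24.2% of all genes. Myc, the growth regulator, had 2228 and 2596 in TF and 13982 and 18038 in SF (log2 fold change -2.57 ± 0.26, adjusted p = 0.00025), and Fosl2, an AP-1 subunit, had 6747 and 5885 in TF and 16302 and 19518 in SF (log2 fold change -1.35 ± 0.25, adjusted p = 0.00509). The higher member, Egr2, had 4186 and 4889.6 in TF and 2669 and 2756 in SF (log2 fold change 0.90 ± 0.26, adjusted p = 0.0312), and its call was lost without any 1 of the 4 libraries and with median-ratio or upper-quartile factors. Its promoter is printed because it held the list's CArG box, in capitals. This serum response element core was searched as CCWWWWWWGG, where W is A or T.
Egr2 (chr10:67537476-67537565, + strand): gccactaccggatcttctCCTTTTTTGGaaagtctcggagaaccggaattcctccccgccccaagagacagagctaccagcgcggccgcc
CArG boxes were in a promoter of 2 of 16 listed genes (12.5%) and of 1.62% of all genes. The list's other motif, TGACGTC on either strand, was in a promoter of 2 of 16 (12.5%) and of 3.16% of all genes.

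Heat shock chaperones were lower in TF in 7 of 11 tested members and higher in none, with a median of -1.42, against 9.13% lower among all genes. Cryab, the small chaperone alpha B-crystallin of muscle, had 592 and 867 normalized counts in TF and 3036 and 3644 in SF (log2 fold change -2.04 ± 0.30, adjusted p = 0.00159). Hsph1 had 5365 and 5913 in TF and 18702 and 21821 in SF (log2 fold change -1.69 ± 0.26, adjusted p = 0.00189), Hspb1 fell by 1.49 ± 0.17 and the cochaperone gene Bag3 by 1.45 ± 0.24. The most strongly inducible members, Hspa1a and Hspa1b, were high in every fresh library, with 19978 and 17548 in TF and 54728 and 57336 in SF for Hspa1a, and did not pass the test (adjusted p = 0.114 and 0.0821). In the libraries of cultured cells Hspa1a had means of 12.9 (TE) and 61 (SE). Without TF1 or without TF2 the list's count was 4. Clock genes were lower as well, 8 of 18 against 1 higher (median -0.93). Per1 had 2002 and 1905 in TF and 4657 and 5298 in SF (log2 fold change -1.19 ± 0.21, adjusted p = 0.00389), the activator Arntl fell by 1.40 ± 0.27, Cry2 by 1.38 ± 0.26 and Rora by 1.55 ± 0.30, whereas the repressor Bhlhe41 rose by 1.44 ± 0.24. The list gave 5 lower members without TF1, TF2 or SF2. The time of day at which cells were collected is not given in the sources used here.

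Metabolic lists split by gene. Of 16 glycolysis and hypoxia genes 6 were higher and 2 lower (median 0.50), with 3 higher without TF1 and 4 without SF1. Pgk1, a glycolytic kinase, had 1951 and 2077 normalized counts in TF and 687 and 837 in SF (log2 fold change 1.56 ± 0.20, adjusted p = 0.000734), and Egln3, a prolyl hydroxylase induced by hypoxia, rose by 2.05 ± 0.28. Pfkp, the platelet-type phosphofructokinase, went the other way with 539.6 and 474 in TF and 2248 and 2843 in SF (log2 fold change -2.17 ± 0.21, adjusted p = 0.000248), and Vegfa fell by 0.72 (not called without TF1 at adjusted p = 0.128, TF2 at 0.189 or SF2 at 0.129). Of 22 genes of fatty acid uptake and oxidation 3 were higher and 4 lower (median -0.09). These 31.8% called stood beside 24.2% of all genes, of which 15.1% were higher and 9.13% lower. Ucp2, a mitochondrial carrier, had 2617 and 2855 in TF and 366 and 379.7 in SF (log2 fold change 3.03 ± 0.20, adjusted p = 5.99e-05). Cpt1b, the muscle form of the enzyme that admits long-chain fatty acids to mitochondria, had 0 in both TF libraries and 104 and 57 in SF, at least 21.3-fold lower in TF, while the general form Cpt1a was not called (0.31). The fatty acid carriers Cd36 and Fabp4 fell by 3.29 ± 0.77 (not called without TF2 at adjusted p = 0.0505; -3.96 without TF1) and 3.03 ± 0.58 (not called without SF2 at adjusted p = 0.0519; -3.82 without TF1 and -2.29 without SF2). Both are also abundant in capillary endothelium, whose markers summed to 1718 and 4991 in TF and 6748 and 8167 in SF. The part of endothelial cells in these values was not tested. Without TF2 or SF2 the list gave 2 lower members in place of 4.

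Immune genes and hormone receptors were called in part. Antigen presentation by MHC class I gave no higher and 4 lower members of 11 (36.4%, against 9.13% lower among all genes, and 2 without TF2, SF1 or SF2). H2-Q4 had 689 and 897 normalized counts in TF and 5365 and 4461 in SF (log2 fold change -2.47 ± 0.38, adjusted p = 0.00185), and H2-K1 had 1219 and 1174 in TF and 3992 and 5056 in SF (log2 fold change -1.76 ± 0.38, adjusted p = 0.00988), while B2m, the shared light chain, was not called (0.41 ± 0.19). Class I genes are polymorphic near-copies, so that their counts are uncertain, and strain and expression cannot be told apart here. The other 2 lower members were H2-D1 (log2 fold change -1.14; not called without TF2 at adjusted p = 0.23, SF1 at 0.0582 or SF2 at 0.148) and their transactivator Nlrc5 (-3.67; not called without TF1 at adjusted p = 0.0584, TF2 at 0.0802, SF1 at 0.0856 or SF2 at 0.092). The interferon response gave 4 higher and 2 lower of 15, each lost on leaving out at least 2 of the 4 libraries in turn. Hormone and cytokine receptors gave 2 higher and 1 lower of 19, and these 15.8% called lay below the 24.2% of all genes. Thyroid receptor Thra rose by 1.02 (not called without TF1 at adjusted p = 0.0554, TF2 at 0.135 or SF1 at 0.176), the growth hormone receptor Ghr by 0.72 (not called without TF1 at adjusted p = 0.302, TF2 at 0.0879 or SF1 at 0.222), and the mineralocorticoid receptor Nr3c2 fell by 1.63 (not called without TF1 at adjusted p = 0.0664). Thra and Ghr were also lost with median-ratio or upper-quartile factors.

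Cytosolic ribosomal protein genes gave 10 higher and 2 lower of 81 tested (median 0.36), with 6 higher without TF1, TF2 or SF1 and 32 without SF2. Rpl41 had 7565 and 7162 normalized counts in TF and 2786 and 4044 in SF (log2 fold change 1.26 ± 0.22, adjusted p = 0.00355). These 14.8% called lay below the 24.2% of all genes. Of the lower members, Rpl34 was uncertain. It had 477 and 355 in TF and 2375 and 3134 in SF, and its copy Rpl34-ps1 had 3247 and 3652 in TF and 27.8 and 13.7 in SF. The copy shares 80.9% of its stretches of 31 bases with Rpl34, and the summed pair had 3724 and 4007 in TF and 2403 and 3147 in SF, a ratio of 1.39. The fall of Rpl34 and the rise of its copy are therefore not separate measurements. Rpl30 fell by 1.40 ± 0.19, from 1879 and 2059 in SF to 646 and 695 in TF.

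Genes with the largest differences held secreted, histone and globin genes. Igfbp2, a binding protein of the Igf growth factors, had 2377 and 2663 normalized counts in TF and 6.37 and 5.7 in SF (log2 fold change 8.84 ± 0.34, adjusted p = 5.61e-06). The replication-dependent histone genes Hist1h1b and Hist1h2ah were near 0 in SF. Hist1h1b had 1132 and 1560.1 in TF and 6.37 and 3.42 in SF, and Hist1h2ah had 526 and 449.6 in TF and 0 in both SF libraries. Cym, which encodes the milk-clotting protease chymosin, had 4312 and 1098 in TF and 5.1 and 0 in SF (log2 fold change 10.21; 8.92 without TF1, 10.88 without TF2, 14.50 without SF1 and 9.21 without SF2; not called in DESeq2). Gbp2b, an interferon-induced GTPase, had 357 and 600.4 in TF and 3.83 and 1.14 in SF (log2 fold change 7.71), and the related Gbp2 went the other way, with 747 and 892 in TF and 1752 and 2188 in SF. Fabp7, a fatty acid carrier of neural precursors, Amy2a5, a pancreatic amylase, and Psca, a surface protein of several epithelia, were at the limit in SF, with 347 and 519 (Fabp7), 2336 and 138 (Amy2a5) and 1014 and 17.2 (Psca) in TF. They were at least 119.6-, 342- and 142-fold higher, with TF1 and TF2 far apart in Amy2a5 and Psca, and DESeq2 called neither Fabp7 nor Psca.

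The largest falls included secreted factors beside genes of other kinds. Erfe, which encodes the secreted hormone erythroferrone, also called myonectin, had 81.8 and 38.1 normalized counts in TF and 27875 and 32437 in SF (log2 fold change -8.82 ± 0.40, adjusted p = 8.64e-06; -9.46 without TF1), and Sfrp5, a Wnt antagonist, had 10.4 and 0 in TF and 3279 and 2282 in SF (log2 fold change -8.90; -14.40 without TF1 and -7.89 without TF2; not called in DESeq2). Casr, the calcium-sensing receptor, had 6.49 and 0 in TF and 283 and 376 in SF (log2 fold change -6.48; -11.33 without TF1 and -5.49 without TF2), Neu2, a cytosolic sialidase, had 0 and 14.8 in TF and 927 and 1341 in SF (-7.06; -6.09 without TF1 and -13.11 without TF2), and 6030440G07Rik had 0 and 5.54 in TF and 392 and 143 in SF (-6.51; not called without SF1 at adjusted p = 0.0588; -5.55 without TF1, -11.00 without TF2 and -5.67 without SF1). Slc7a15, an amino acid transporter gene, was at least 55.6-fold lower with 194 and 228 in SF, and the predicted genes Gm2026, Gm906 and Gm3893 were also among the largest falls.

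Near-identical copies made up several of the other large differences. BC002163 had 534 and 603 normalized counts in TF and 0 in both SF libraries, and Ndufs5, a complex I subunit with which it shares 81.0% of its 31-base stretches, had 0 and 1.59 in TF and 284 and 283 in SF. Summed, the pair stood at a ratio of 2.01. Entpd4b and Entpd4 share every stretch, and all counts were given to the first in TF (510.2 and 498) and all to the second in SF (209 and 166), at a summed ratio of 2.69. Eif3j1 and Eif3j2 had a summed ratio of 0.361 where Eif3j1 alone had a log2 fold change of -7.11, and Rnaset2a and Rnaset2b had 1.19 where Rnaset2b alone had -7.07. The adult beta globin genes Hbb-bs and Hbb-bt were at 0 in both TF libraries and had 562 and 673 (Hbb-bs) and 106 and 263 (Hbb-bt) in SF, while Hbb-b1, an allelic form, had 1625 and 17.2 in TF and 0 and 8.35 in SF. The TF value rested on TF1 (not called without TF1 at adjusted p = 0.801, SF1 at 0.15 or SF2 at 0.0544; 2.19 without TF1, 8.71 without TF2, 6.77 without SF1 and 12.78 without SF2). Laboratory strains differ in the beta globin forms they carry, and strain and expression cannot be told apart here.

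Markers of other cell types were checked in the same libraries. Epithelial markers gave 3 higher of 6 (5 without SF1) and summed to 5749 in TF1, 1892 in TF2, 286 in SF1 and 30.2 in SF2. Krt8, a simple epithelial keratin, had 2084 and 695 normalized counts in TF and 25.5 and 0 in SF (log2 fold change 6.97; 5.98 without TF1, 7.56 without TF2, 13.54 without SF1 and 5.96 without SF2; not called in DESeq2), and Epcam had 541 and 274 in TF and 33.1 and 12.5 in SF (log2 fold change 4.33 ± 0.76, adjusted p = 0.00638; not called without TF1 at adjusted p = 0.0573; 5.12 without SF1). Blood cell markers summed to 5685 in TF1 against 496 in TF2 and 473 to 480 in SF. Ptprc, which encodes the CD45 antigen that was gated out, had 772 and 98.4 in TF and 65 and 26.2 in SF, and Lyz2 had 2931 and 171 in TF and 122 and 101 in SF. The 3 calls of this list (Lyz2, Ptprc and Csf1r) all vanished without TF1, with log2 differences of 0.78, 1.29 and 0.85, and were also lost without SF1 or SF2. Without TF1, mitosis genes still gave 18 of 24 higher and matrix genes 29 of 33.

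Endothelial markers gave 1 lower and none higher of 8 (12.5% called, against 24.2% of all genes). Pecam1, which encodes the gated CD31, had 849 and 84.9 normalized counts in TF and 818 and 1228 in SF. It was lowest in TF2. Without TF1 4 endothelial markers were lower. Tek had 336 and 181 in TF and 1361 and 1679 in SF (log2 fold change -2.40 ± 0.51, adjusted p = 0.00881). Pericyte and smooth muscle markers gave 2 higher and 2 lower of 8 (1 of each without TF2 or SF1), with sums of 21546 to 21706 in TF and 19594 to 21128 in SF. Schwann cell markers gave 2 lower and none higher of 6 (1 lower without TF2 or SF1), summing to 225 to 346 in TF and 1390 to 1713 in SF. Neural markers gave 3 higher of 9, among them Sox2 with 345 and 209 in TF and 15.3 and 9.12 in SF (log2 fold change 4.66; not called without TF1 at adjusted p = 0.0714) and Nes, an intermediate filament that dividing myoblasts also make, with 4083 and 3829 in TF and 1118 and 1479 in SF (log2 fold change 1.76 ± 0.23, adjusted p = 0.000777). Dcx, also on the neural list, was higher in TF with any 1 library left out, by 2.25 to 4.02 on the log2 scale. Of the 9 neural markers 6 were not called. Cartilage genes gave 2 higher of 6, with Col2a1 at 5842 and 2102 in TF and 113 and 44.5 in SF (log2 fold change 5.83 ± 0.58, adjusted p = 0.00025; 4.92 without TF1 and 6.59 without SF1). None of the 4 tested pluripotency markers was called (1 lower without TF1), and their sum was 158 and 1.23 in TF and 134 to 232 in SF. Pou5f1, the defining gene of embryonic stem cells, had 8 counts in TF1, 0 in TF2, 1 in SF1 and 0 in SF2. The part of these cells in the lists above was not tested.

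**Figure D4:**
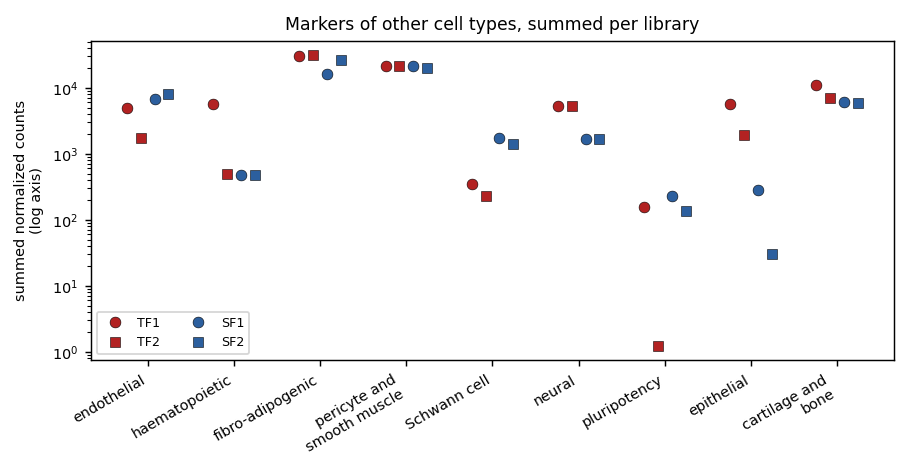
Summed normalized counts (log axis) of each marker list in the 4 fresh libraries, 1 point per library. Blood cell and epithelial markers are highest in TF1, at 5685 and 5749, and endothelial and Schwann cell markers are higher in SF.

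Y-linked genes differed in part. Ddx3y had 915 and 959.7 normalized counts in TF and 3803 and 5153 in SF (log2 fold change -2.10 ± 0.36, adjusted p = 0.00317), and Kdm5d had 32.5 and 34.5 in TF and 287 and 231 in SF (log2 fold change -2.79 ± 0.38, adjusted p = 0.00154), while Eif2s3y was not called (332 and 281 in TF and 324 and 643 in SF). Xist, the RNA of the inactive X, had 200.2 and 20.5 in TF and 187 and 153 in SF. Among the other chromosomes, chromosome 6 differed from the rest, an observation made after the values were seen. Its 674 genes that averaged 50 or more normalized counts over the fresh libraries had a median log2 difference of 0.70, whereas the medians of the other autosomes and the X lay between 0.055 and 0.30. On it 35.9% of these genes were higher and 5.79% lower. It held 246 of the higher calls (9.29%) and 5.25% of all genes tested. Among the genes described above, Peg10, Ccnd2, Met, Mcm2, Smyd1 and Rpl34-ps1 lie on this chromosome. Calcr, which was lower in TF, lies there too.

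Fewer genes were called between the expanded cells. TE and SE differed in 1268 genes (7.21%), 553 higher (3.15%) and 715 lower (4.07%) in TE, and the difference between the fresh and the expanded comparison was itself called in 2517 genes (14.3%), higher in 1691 (9.62%) and lower in 826 (4.70%). Of the 2655 genes higher in TF, 191 (7.19%) were also higher in TE than in SE, which is 34.5% of the genes higher in TE, and 158 were lower. Of the 1606 lower genes, 159 (9.90%) were also lower, 22.2% of the genes lower in TE, and 61 were higher. The 2 comparisons share no libraries but do share the estimate of spread. None of the mitosis genes was called between TE and SE, where their median was -0.51, and the interaction was called for 20 of 24. Matrix genes gave 4 higher and 4 lower between TE and SE, with the interaction called higher for 22 of 33. Embryonic, fetal and slow contractile isoforms gave none either way in the expanded cells, and adult fast fibre genes gave 1 higher and 4 lower. Glycolysis and hypoxia genes gave 13 of 16 lower in TE than SE, where the fresh cells had 6 higher and 2 lower, and Hox genes gave 13 of 34 lower with a median of -5.19.

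Some differences were called in both states. Cdkn1c was higher in TE than SE by 3.50 ± 0.61 on the log2 scale, beside the fresh difference of 3.19, and the interaction was not called (-0.31 ± 0.79, adjusted p = 0.879). Grb10, lower in TF by 5.77, was lower in TE as well (-5.83 ± 0.72). In the expanded cells Hmga1 differed by -3.81 ± 0.42, Pax3 by -6.06 ± 1.05 and Lbx1 by -7.90 ± 0.50, all lower in the teratoma-derived cells in both states. Pitx1, Isl1 and Tbx3 were higher in both (5.59 ± 1.0, 3.24 ± 0.62 and 2.38 ± 0.30 in the expanded cells). Pax7 was called in neither state, at -0.06 ± 0.27 in the expanded cells. A fresh difference without a call among expanded cells does not show that expanded cells are equal.

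**Figure D5:**
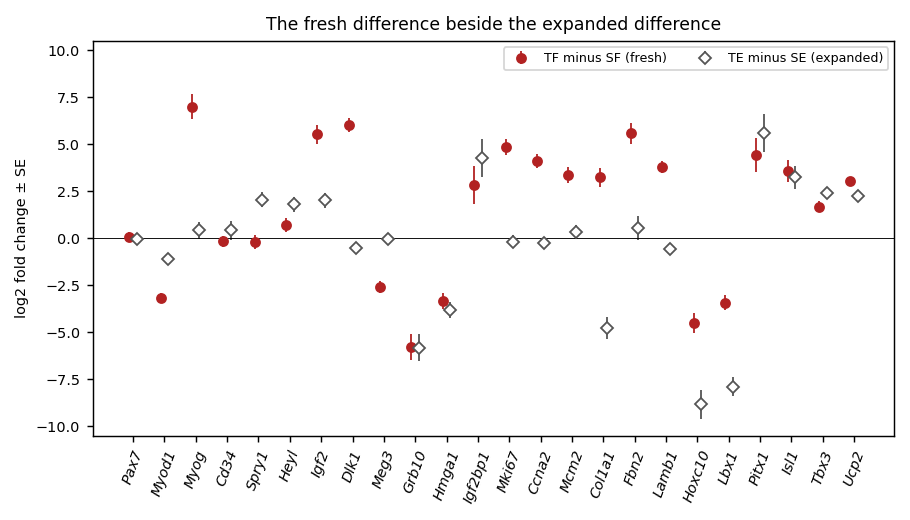
Log2 fold changes (vertical axis, points with standard errors) of 24 genes between fresh populations (TF minus SF, filled) and between expanded populations (TE minus SE, open). Dlk1, Mki67 and Myog lie far above 0 in the fresh pair and near 0 in the expanded pair, while Grb10, Hmga1 and Lbx1 lie below 0 in both.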

How the data were processed

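RNA was extracted with the RNeasy Mini kit with on-column DNA removal, and stranded total RNA libraries were made with a low-input SMARTer Pico kit (v2). The authors deposited 1 table of estimated counts per gene symbol for all 8 libraries, not normalized. The submitters' processing notes name CASAVA, kallisto 0.44.0 and the build GRCm38/mm10. The annotation and the strand setting of the counting are not given in the sources used here, so that overlapping and antisense genes are uncertain. Estimated counts were rounded to whole numbers. Totals per fresh library were 11930961 to 16872802, and with 2 libraries per group the spread between libraries, not depth, limits most comparisons. The study calls the libraries biological replicates, and whether they came from separate animals is not given in the sources used here, so p-values measure the spread between these libraries, which may be technical.

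Genes were kept with filterByExpr (17582 of 24980) and tested with edgeR 4.0.16 in R 4.3.3 (TMM factors, quasi-likelihood test, Benjamini-Hochberg adjustment) in 1 fit of all 4 groups, from which the TF against SF, TE against SE and interaction contrasts were taken. A gene was called at an adjusted p below 0.05 with the higher group over 25% above the lower. Normalized counts were counts divided by DESeq2 1.42.0 median-ratio factors. A group with at most 3 counts in each library gave a bound in place of a fold. Alternatives were median-ratio and upper-quartile factors, no filter, DESeq2, the 4 fresh libraries alone, a replicate block, glmTreat against the fold threshold, removal of Rn45s, offsets for GC content or transcript length (known for 98.7% of tested genes), TMM-scaled CPM for marker sums, and leaving out each library. The code was tested on simulated data with 100 genes changed 2-fold and 100 changed 4-fold. Of these, 3% and 48% were called in the right direction, and 4 of 55 calls were false. Far fewer genes differed there than were called here, so these shares need not hold for the real comparison. A gene that was not called may still differ. Promoters were those of RefSeq (32851 promoters, 13416 tested genes matched by symbol), and gene positions are GENCODE M21 on GRCm38.

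The lists and members were chosen with earlier results of these data known. The genes named were key genes of each list, the 8 largest called differences in each direction with a mean of at least 200 in the higher group and over 3 counts in the lower, 6 in each direction with the lower group at the limit, up to 4 called members of a list in each direction with a mean of at least 50, and the first member of each list. Genes named outside this rule, such as those on which a count turned, were chosen after their values were seen.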

Additional observations from a re-analysis of the deposited data

Results flagged for a closer look

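8 key genes had a fresh difference (TF minus SF) that differed from the expanded difference (TE minus SE) by the interaction term of edgeR's quasi-likelihood fit, with Benjamini-Hochberg adjustment over all genes. The interaction is the first log2 difference minus the second, and the 2 comparisons share no libraries. It was positive for Myog (6.58 ± 0.77, adjusted p = 0.000832), Mki67 (5.05 ± 0.52, adjusted p = 0.000481), Igf2 (3.51 ± 0.59, adjusted p = 0.0046) and Dlk1 (6.52 ± 0.49, adjusted p = 9.19e-05). H19 had 0 counts in both TE libraries, and its interaction was at least 18.8 on the log2 scale (adjusted p = 9.17e-05). It was negative for Myod1 (-2.05 ± 0.33, adjusted p = 0.00359), Spry1 (-2.25 ± 0.53, adjusted p = 0.0212) and Meg3 (-2.55 ± 0.46, adjusted p = 0.00605).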

How the results depend on the processing

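No called difference of a named gene reversed. Uncalled differences changed sign under at least 1 alternative for genes that include Pax7, Cd34, Hmga2, Itga7, Notch1, Nfia, Sox10 and Sox1, and so did the uncalled interactions of Pax7 and Igf2bp1. Over 232 results on named genes, 2967 values stayed on their side of the threshold, 233 lost the call and 29 gained one. DESeq2 called 2646 genes lower against 1606 in edgeR, and gave an interaction called lower in 1499 (1284 with no filter on low counts, 826 in edgeR). Leaving out each library in turn left 1693 to 2347 genes higher and 932 to 1218 lower, with 548 to 777 interactions called lower, and fewer libraries give the test fewer degrees of freedom. These fits kept 58.0% to 72.3% of the calls. With no filter 3158 genes were higher and 2013 lower. In the lists, lower members were 1 to 2 for fetal RNA-binding genes (2 with all libraries) and 4 for quiescence genes (7 with all libraries) when a library was left out. Immediate early genes gave 5 lower in DESeq2 and 4 with the GC content offset, against 2. The cause of these moves was not tested. In TMM-scaled CPM the log2 ratio of summed markers, TF over SF, was 0.26 for pericyte and smooth muscle (0.09 in normalized counts) and 1.80 for neural markers (1.63).

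Replicate numbers were not taken as pairs, since the deviations of same-numbered libraries correlated at 0.0757 between TF and SF and at -0.0263 to 0.0187 between the other groups. With the replicate block 2520 genes were higher and 1459 lower.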
